A study of Mus musculus with 6 samples.

Results

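The bone morphogenetic protein (BMP) and transforming growth factor beta (TGF-β) genes described here are 43 genes, listed by symbol for their place in these pathways and not by a cut on measured values, of 55401 genes in the count table of the series. They comprise 13 BMP and growth differentiation factor (GDF) ligands, 7 TGF-β, activin, inhibin and nodal ligands, 10 receptors, 3 secreted antagonists, 7 Smads and 3 Id genes. All 43 symbols were matched to an Ensembl identifier. Of the 43, 40 passed the filter on low counts, among 16784 genes of the table that did, and *Gdf1*, *Gdf5* and *Nodal* did not.

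RNA-seq was performed on whole mouse embryos at midgestation (embryonic day E10.5) on a C57BL/6J background. WT embryos were littermates with an unmodified *Igf2* locus, and 5C embryos carried an array of 5 extra tandem copies of *Mir483* inserted at the endogenous *Igf2* gene, which hosts this microRNA. Each genotype had 3 libraries, each of which, as the study's methods state, pooled 2 male embryos. The array is carried in every cell and the tissue is the whole embryo, so a value is a sum over all cell types: fewer cells of a type and less RNA per cell cannot be told apart. The question addressed here is whether the genes of these growth factor pathways differed in RNA level between 5C and WT embryos.

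BMP and TGF-β ligands are secreted dimers that bind pairs of type I and type II serine/threonine kinase receptors. The type I receptors phosphorylate Smad1, Smad5 and Smad9 in the BMP branch or Smad2 and Smad3 in the TGF-β and activin branch, which enter the nucleus with Smad4. Smad6 and Smad7 inhibit the signal inside the cell, noggin, chordin and follistatin bind ligands outside it, and the Id genes are direct BMP targets. In the midgestation embryo the pathways act in the patterning of the neural tube and limb buds, the heart and the vasculature.

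The array holds extra copies of the gene for 2 mature microRNAs, so their sequences and the places where they could pair with these genes are shown first, with the seed (bases 2 to 8 of the microRNA) or its match in capitals. Both microRNAs lie on the minus strand of chromosome 7 of GRCm38, miR-483-3p at chr7:142654932-142654952 and miR-483-5p at chr7:142654968-142654989.
miR-483-3p: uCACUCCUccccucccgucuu
miR-483-5p: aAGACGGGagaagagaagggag
In DNA letters the seed matches searched in the transcript sequence of each 3′ UTR were AGGAGTG for miR-483-3p and CCCGTCT for miR-483-5p. Neither motif is part of the other. In the longest annotated coding 3′ UTR, 6 of the 43 genes held at least 1 match. The matched windows of 22 bases are given 5′ to 3′ on the gene's strand.
*Bmp5*, chr9:75899911-75899932, plus strand, miR-483-3p: acgctgactttctgAGGAGTGg
*Bmpr1a*, chr14:34411518-34411539, minus strand, miR-483-3p: acctcctggctgtaAGGAGTGg
*Tgfbr2*, chr9:116087414-116087435, minus strand, miR-483-3p: acagggcaagttccAGGAGTGt
*Tgfbr2*, chr9:116087168-116087189, minus strand, miR-483-5p: aatatggcaacagcCCCGTCTt
*Bmp3*, chr5:98880358-98880379, plus strand, miR-483-5p: gcaactgctaaacaCCCGTCTt
*Smad5*, chr13:56740783-56740804, plus strand, miR-483-5p: ggtctcttaaaagtCCCGTCTc
*Smad9*, chr3:54798256-54798277, plus strand, miR-483-5p: ctggaagccatcttCCCGTCTt
*Tgfbr2*, the type II TGF-β receptor, was the 1 gene of the 43 with a match to both microRNAs. Each match covers the seed alone, since none is followed by the A that would make it 8 bases long. A seventh gene, *Chrd*, held a match to miR-483-3p only in a 3′ UTR of another annotated transcript.

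The edit itself was visible in the libraries. *Mir483* read 0.577, 0.429 and 0.319 CPM in WT replicates 1, 2 and 3 and 5.15, 4.35 and 2.56 CPM in 5C replicates 1, 2 and 3. CPM is a gene's count scaled to a common library total after normalization. The libraries were made from poly(A) RNA, so these values stand for longer transcripts that hold the precursor and not for the mature microRNA. The genotypes did not overlap, and the log2 fold change was 3.05 ± 0.40 (SE, n = 3 libraries per genotype; edgeR quasi-likelihood test, adjusted p = 0.169). Library totals ranged from 6357343 to 19151368 counts, so that 3 counts, the smallest level taken as detectable, stood for 0.157 to 0.472 CPM, which covers counting error only.

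Some libraries stood apart in ways the genotype did not explain. The Y-linked transcript *Ddx3y* was at 0.944 CPM in WT replicate 2 and at 0 in 5C replicate 2, against 41.6 to 55.9 CPM in the other 4 libraries, and *Xist*, the RNA of the inactive X chromosome, read 495 to 914 CPM in all 6, both of which go against the stated male pools. The summed level of 8 yolk sac endoderm markers was 6040 CPM in WT replicate 1 and 1170 CPM in 5C replicate 3, against 119 to 425 CPM in the other 4. Sums of 8 decidual and uterine killer cell markers (10.49 to 49.3 CPM in WT, 12.6 to 55.9 CPM in 5C, with *Prl3c1* at 0 in 5 libraries) and of 8 trophoblast markers (2.71 to 6.18 and 1.37 to 8.33 CPM, with *Psg18* at 0 throughout) overlapped between genotypes. *Prl8a2* gave 5.07 of 11.1 CPM of the decidual sum in WT replicate 2 and 28.3 of 55.9 CPM in 5C replicate 3. It gave a larger part of the sum in the other 4 libraries. The killer cell granzymes *Gzmc*, *Gzmd*, *Gzmf* and *Gzmg* in the list had log2 fold changes of 1.63 to 2.24 (edgeR, adjusted p = 0.781 for each). Their levels of 0.105 to 1.72 CPM in WT and 0.683 to 7.19 CPM in 5C overlapped. Defining markers of the embryo were present in every library: 4 neural tube markers summed to 145 to 159 CPM in WT and 171 to 174 CPM in 5C, 4 heart muscle markers to 224 to 345 and 200 to 230 CPM, and 4 somite and limb markers to 310 to 349 and 314 to 328 CPM. The neural tube sums did not overlap. Within that list *Sox2* and *Pax6* did not overlap (log2 fold changes 0.25 and 0.16), and *Sox1* and *Olig2* did (0.06 for each). Within the heart list *Myh6*, for atrial myosin, was lower in 5C without overlap (61.1, 86.5 and 72.3 CPM in WT against 48.9, 39.2 and 33.1 CPM in 5C; edgeR, log2 fold change -0.85, adjusted p = 0.781), and the other 3 heart markers overlapped. The part of these differences in the values that follow was not tested.

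No member of the pathway was a differentially expressed gene (DEG), defined by a difference of more than 1.5-fold with an edgeR adjusted p under 0.05, and 0.0% of all genes tested were. The study itself reported DEGs between 5C and WT embryos at E10.5 with these cuts. The reason for this difference from the published result was not tested. At an unadjusted p under 0.05 the count was 0 of 40 members, against 6.02% of all genes tested. DESeq2, which tested 42 members and 33084 genes, called 0 members as DEGs, against 0.0332% of its genes. It had 1 of 42 members, *Tgfb1*, at an unadjusted p under 0.05, against 2.32% of its genes. The 3 WT and the 3 5C libraries did not overlap for 3 of 40 members (7.5%), *Fst* and *Smad2* being higher and *Acvr1* lower in 5C, against 11.4% of all genes tested. Log2 fold changes ran from -0.63 (*Tgfb1*) to 0.27 (*Fst*), 21 were below 0 and 19 above, and their median was -0.0012, beside -0.0024 over all genes tested. The median size of a change, regardless of sign, was 0.0972 on the log2 scale for the members and 0.107 for all genes.

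How large a change these libraries could have missed is given by the 95% intervals of the fold changes. The interval lay wholly within 1.5-fold in either direction for 30 of 40 members (75.0%), beside 67.5% of all genes tested, and within 2-fold for 37 (92.5%), beside 89.0%. For the 26 members with a mean of at least 10 CPM it lay within 1.5-fold in all 26, beside 94.2% of 10350 genes at that level. The members left with wide intervals were those of low level, mostly ligands. The typical variation between libraries of 1 genotype (biological coefficient of variation) had a median of 11.7% over the members and 12.2% over all genes.

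**Figure D1:**
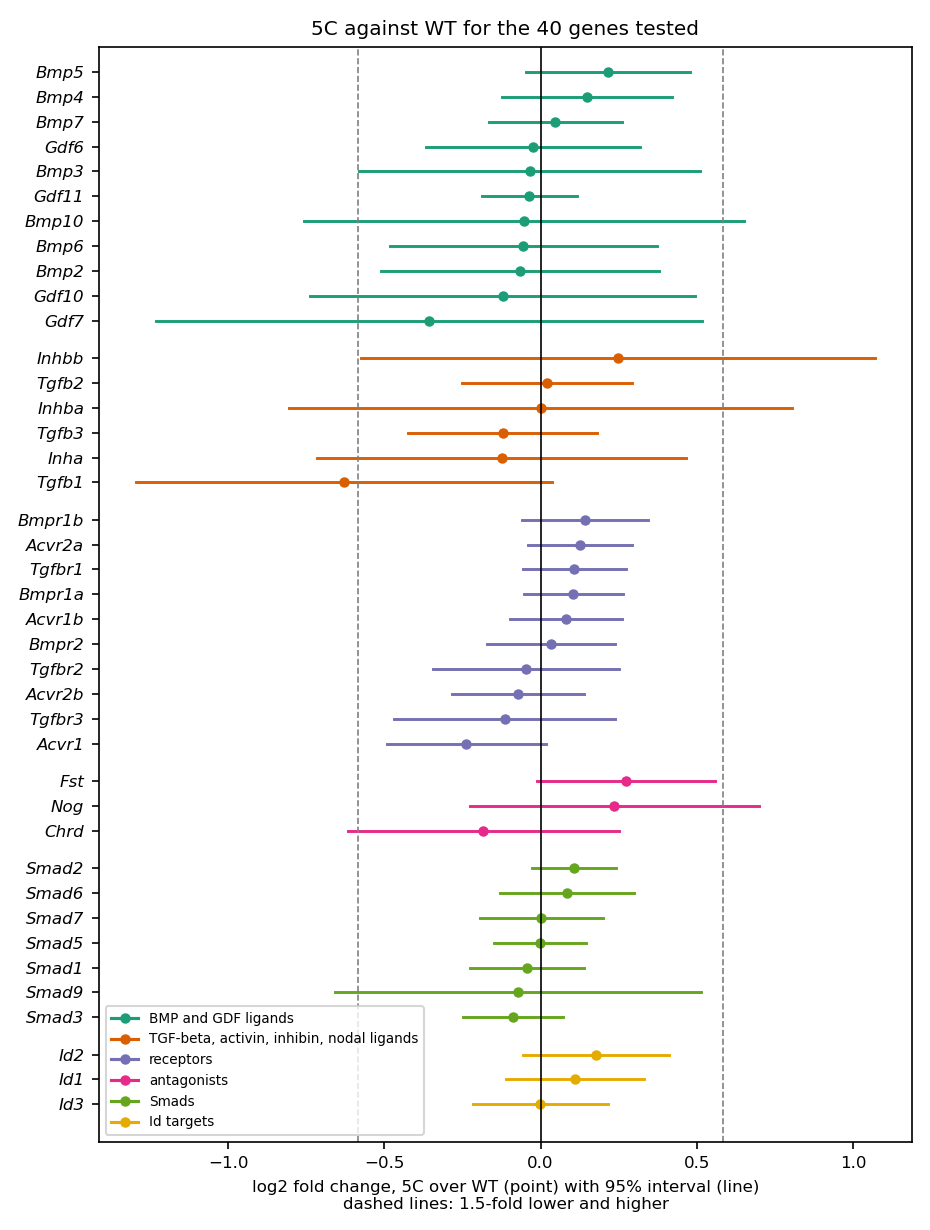
Log2 fold change of 5C over WT for the 40 tested genes (points) with 95% intervals (lines), coloured by role, and dashed lines at 1.5-fold. All intervals include 0, those of the 10 receptors and 3 Id genes lie inside the dashed lines, and the widest belong to *Gdf7*, *Inhbb*, *Inhba* and *Bmp10*.

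The counts were also taken without the libraries in doubt. Without replicate 2 of both genotypes, the libraries low in Y-linked transcripts, 2 of 40 members (*Tgfbr3* and *Tgfb1*, both lower in 5C) had an unadjusted p under 0.05, against 5.11% of all genes, and 16 did not overlap, against 36.2% of all genes. Without WT replicate 1 and 5C replicate 3, the libraries highest in yolk sac markers, 0 of 38 members had such a p, against 4.71% of all genes, and 10 did not overlap, against 33.0%. No member was a DEG either way.

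Among the ligands, RNA per kilobase of exon spanned a wide range. The 13 BMP and GDF genes summed to 51.6 ± 1.83 CPM per kilobase in WT and 53.2 ± 2.81 in 5C (SD, n = 3), of which *Gdf11* gave 37.8%. The order of their mean levels was *Gdf11* (19.8 CPM per kilobase), *Bmp4* (12.3), *Bmp7* (6.84), *Bmp5* (6.51), *Gdf6* (1.87), *Bmp6* (1.25), *Bmp2* (1.17), *Gdf7* (0.779), *Gdf10* (0.658), *Bmp10* (0.625), *Bmp3* (0.414), *Gdf5* (0.156) and *Gdf1* (0). Neighbours in this order overlapped over the 6 libraries in 8 of 12 pairs, and the exceptions were the steps below *Gdf11*, *Bmp4*, *Bmp5* and *Gdf6*. *Gdf1* had 0 counts in all 6 libraries. All 1349 of its exon bases lie under *Cers1* on the same strand, where reads cannot be given to 1 gene, so the 0 says nothing of its expression.

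*Gdf11*, a ligand of the activin branch that acts in axial patterning, read 83.8, 82.9 and 77.9 CPM in the WT libraries and 76.5, 80.0 and 82.2 CPM in the 5C libraries. The ranges overlapped nearly in full, and the log2 fold change of -0.04 had an interval from -0.19 to 0.12. *Bmp4*, which patterns mesoderm and the dorsal neural tube, read 26.4, 27.5 and 24.7 CPM in WT against 24.4, 29.8 and 33.2 CPM in 5C. The highest pair of values was from 5C and so was the lowest value, and the log2 fold change was 0.15 ± 0.12 (SE; edgeR, adjusted p = 0.811).

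*Bmp5*, with roles in skeletal and heart development, had the smallest p of the BMP and GDF group. Its WT libraries stood close together at 24.4, 24.0 and 24.4 CPM, and the 5C libraries spread over 24.1, 28.2 and 32.3 CPM. 5C replicate 1 lay among the WT libraries and the other two lay above them, with a log2 fold change of 0.22 ± 0.12 (edgeR, adjusted p = 0.781). The seed match of miR-483-3p shown above lies in its 3′ UTR, and 46.7% of its exon bases lie under a gene on the opposite strand. *Bmp7*, needed for kidney and eye, read 27.1, 25.7 and 28.4 CPM in WT against 29.6, 25.6 and 28.5 CPM in 5C, and these ranges overlapped (log2 fold change 0.05, interval -0.17 to 0.26).

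*Bmp2*, a ligand of heart and limb development, was lower in level, at 4.72, 3.52 and 4.47 CPM in WT against 4.48, 4.18 and 3.49 CPM in 5C. The ranges overlapped, and the interval of its log2 fold change (-0.06) ran from -0.51 to 0.38, or from 0.703-fold to 1.30-fold. The other 6 tested ligands of the group, *Bmp3*, *Bmp6*, *Bmp10*, *Gdf6*, *Gdf7* and *Gdf10*, had log2 fold changes between -0.36 (*Gdf7*, which marks the roof plate of the neural tube) and -0.02 (*Gdf6*), none with the genotypes apart. *Bmp10*, a ligand made by the heart muscle, read 2.23 to 3.78 CPM in WT and 1.62 to 3.58 CPM in 5C, and its interval reached 1.57-fold higher. The part of the lower *Myh6* of 5C in this value was not tested. *Gdf5*, a joint ligand that did not pass the filter, read 0 to 0.787 CPM in WT and 0.242 to 0.341 CPM in 5C.

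**Figure D2:**
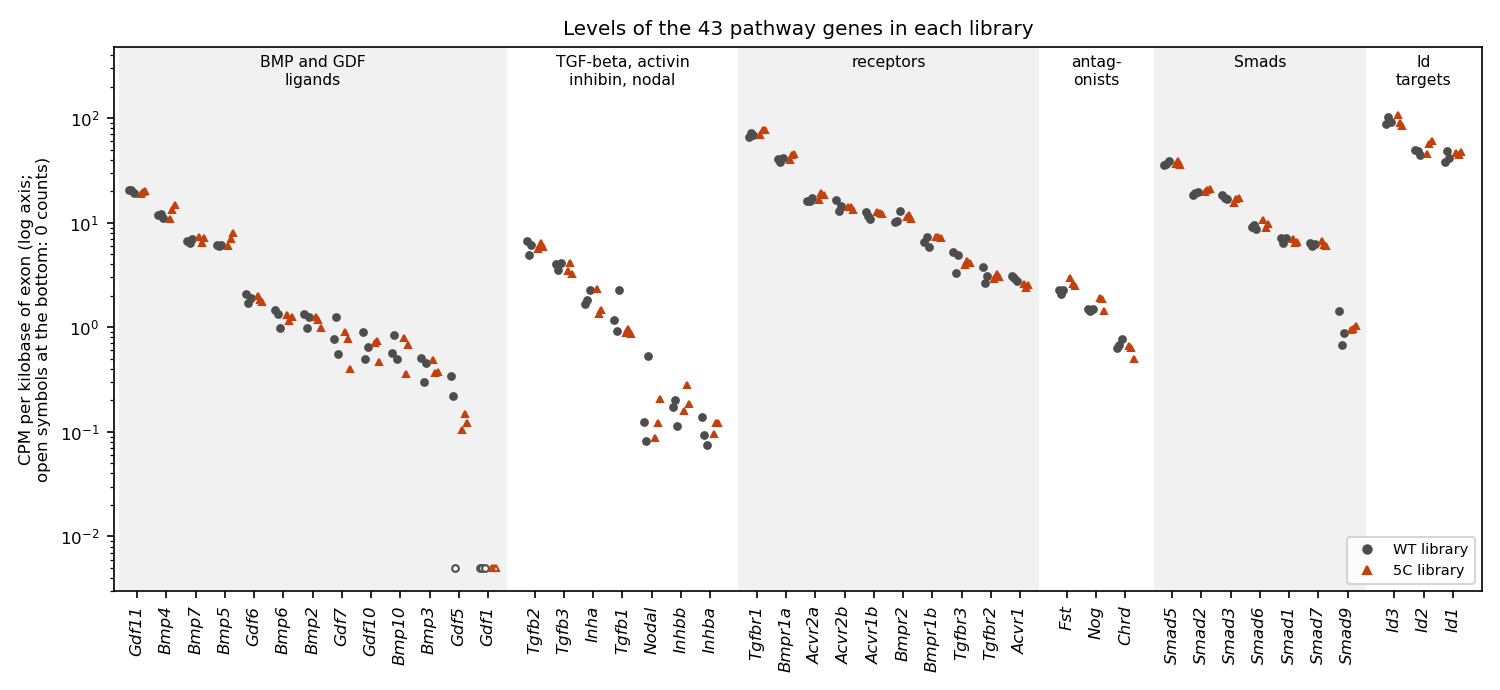
Level of each of the 43 genes in each library, in CPM per kilobase of exon on a log axis, by role and in order of mean level (circles: WT; triangles: 5C). The receptors, Id genes and Smads other than *Smad9* sit above most ligands and antagonists. The genotypes lie side by side for nearly every gene.

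The 7 ligands of the TGF-β, activin, inhibin and nodal group summed to 13.7 ± 2.03 CPM per kilobase in WT and 12.6 ± 0.709 in 5C, with 45.2% from *Tgfb2*. The order was *Tgfb2* (5.94 CPM per kilobase), *Tgfb3* (3.74), *Inha* (1.80), *Tgfb1* (1.18), *Nodal* (0.192), *Inhbb* (0.185) and *Inhba* (0.108), with neighbours overlapping in 3 of 6 pairs. *Tgfb2*, needed for heart valve and craniofacial development, read 38.7, 28.2 and 35.4 CPM in WT against 32.4, 37.4 and 34.2 CPM in 5C. The 5C libraries fell inside the WT range, and the log2 fold change was 0.02 (interval -0.25 to 0.29).

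*Tgfb1*, the ligand of blood, immune and endothelial cells, had the largest fitted change of the 40 members. It read 5.88, 4.64 and 11.5 CPM in WT against 4.48, 4.87 and 4.34 CPM in 5C. WT replicate 3, the shallowest library, was far above the other 5, and WT replicate 2 lay within the 5C range. The log2 fold change was -0.63 ± 0.30 (edgeR, adjusted p = 0.781), and without WT replicate 3 it was -0.22 (adjusted p = 0.891). With single libraries left out it was largest, -0.86 (adjusted p = 0.443), without WT replicate 2.

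*Tgfb3*, a ligand of palate and lung, averaged 13.2 ± 1.11 CPM in WT and 12.1 ± 1.53 CPM in 5C (log2 fold change -0.12, interval -0.42 to 0.18). Of the activin and inhibin subunit genes, *Inhba* and *Inhbb* were near the limit of these data. *Inha* averaged 2.83 ± 0.464 and 2.5 ± 0.781 CPM, *Inhba* 0.657 ± 0.212 and 0.719 ± 0.0983 CPM, and *Inhbb* 0.691 ± 0.194 and 0.882 ± 0.278 CPM in WT and 5C. The interval of *Inhbb* reached 2.10-fold higher and that of *Inhba* ran from 0.573-fold to 1.75-fold. A moderate change in either was thus not detectable in these libraries. *Nodal*, whose main role is earlier, in gastrulation and left-right patterning, read 0.172 to 1.12 CPM in WT, the highest again in replicate 3, and 0.182 to 0.427 CPM in 5C.

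The 10 receptors all had intervals inside 1.5-fold. Their sum was 180 ± 2.23 CPM per kilobase in WT and 190 ± 8.57 in 5C, and *Tgfbr1* gave 38.7% of it. The order was *Tgfbr1* (71.8 CPM per kilobase), *Bmpr1a* (41.7), *Acvr2a* (17.3), *Acvr2b* (14.3), *Acvr1b* (12), *Bmpr2* (11.2), *Bmpr1b* (6.91), *Tgfbr3* (4.32), *Tgfbr2* (3.12) and *Acvr1* (2.72), and neighbours overlapped in 4 of 9 pairs. *Tgfbr1* and *Bmpr1a*, type I receptors of the TGF-β and BMP branches, were thus both above all their type II partners.

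*Acvr1*, a type I receptor of the BMP branch at chr2:58388644-58567157, was the receptor with the smallest p and the 1 member lower in 5C with no overlap. It read 15.0, 14.2 and 13.4 CPM in WT against 12.4, 11.4 and 12.4 CPM in 5C, so the lowest WT library was above the highest 5C library. The log2 fold change was -0.24 ± 0.11 (edgeR, adjusted p = 0.781), with an interval from 0.711-fold to 1.01-fold, and leaving out any single library moved it between -0.28 and -0.19. Non-overlap in this direction was found for 5.1% of all genes tested.

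*Tgfbr1* read 431, 474 and 450 CPM in WT against 450, 504 and 507 CPM in 5C. WT replicate 2 lay above 5C replicate 1, and the log2 fold change was 0.11 ± 0.07 (edgeR, adjusted p = 0.783). *Bmpr1a* was similar, at 259, 243 and 264 CPM in WT against 254, 281 and 289 CPM in 5C (log2 fold change 0.11, adjusted p = 0.781). With offsets on transcript GC content the log2 fold changes of these receptors were 0.025 (*Tgfbr1*) and 0.024 (*Bmpr1a*). *Tgfbr2*, with its matches to both microRNAs, read 30.7, 21.6 and 25.4 CPM in WT against 23.8, 26.7 and 25.1 CPM in 5C, all 5C libraries being inside the WT range (log2 fold change -0.05, interval -0.34 to 0.25).

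The other 6 receptors overlapped between genotypes, with log2 fold changes from -0.11 (*Tgfbr3*, the co-receptor betaglycan) to 0.14 (*Bmpr1b*, a type I receptor of cartilage and limb). *Tgfbr3* read 34.5, 21.6 and 32.1 CPM in WT against 26.1, 28.3 and 27.1 CPM in 5C, and WT replicate 2 was the lowest of all 6. Its log2 fold change was -0.30 without that library (edgeR, adjusted p = 0.431) and turned to 0.04 (adjusted p = 0.993) without WT replicate 1. *Bmpr2*, the main type II BMP receptor, averaged 200 ± 26.4 CPM in WT and 204 ± 8.13 CPM in 5C.

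The 3 antagonists were expressed at low levels, with a sum of 4.37 ± 0.173 CPM per kilobase in WT and 5.00 ± 0.558 in 5C. *Fst* (2.44 CPM per kilobase) gave 52.1% of it, followed by *Nog* (1.6) and *Chrd* (0.644), and none of these neighbours overlapped. *Fst*, at chr13:114452290-114458951, encodes follistatin, which binds activins and some BMPs, and had the smallest p of the 40 members tested. It read 10.4, 9.62 and 10.4 CPM in WT against 13.6, 11.8 and 11.4 CPM in 5C. All 5C libraries were above all WT libraries, as for 6.26% of all genes tested in this direction. The log2 fold change was 0.27 ± 0.13 (edgeR, adjusted p = 0.781), with an interval from 0.993-fold to 1.47-fold.

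*Nog* encodes noggin, which blocks BMP2, BMP4 and BMP7, and read 2.52, 2.40 and 2.55 CPM in WT against 3.21, 3.16 and 2.42 CPM in 5C. 5C replicates 1 and 2 were above WT and replicate 3 was among the WT libraries (log2 fold change 0.24 ± 0.21; edgeR, adjusted p = 0.819). *Chrd*, for chordin, lay in the other direction, at 4.31 ± 0.435 CPM in WT and 3.75 ± 0.547 CPM in 5C, with overlap (log2 fold change -0.18, interval -0.62 to 0.25).

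**Figure D3:**
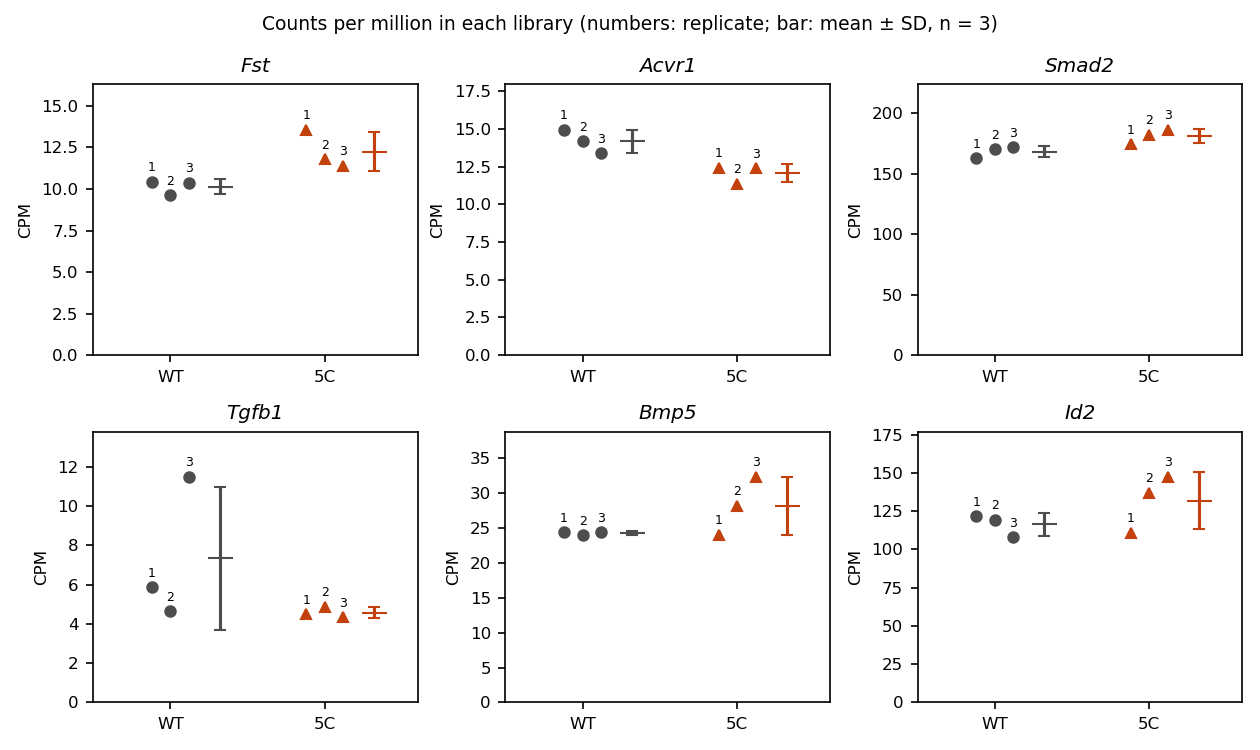
CPM in each library, with mean and SD beside it (n = 3), for the 3 genes whose genotypes did not overlap (*Fst*, *Acvr1*, *Smad2*) and for *Tgfb1*, *Bmp5* and *Id2*; axes start at 0. The *Tgfb1* mean of WT rests on replicate 3 at 11.5 CPM, and 5C replicate 1 lies among the WT libraries for *Bmp5* and *Id2*.

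The 7 Smads summed to 96.9 ± 1.30 CPM per kilobase in WT and 97.6 ± 0.960 in 5C. *Smad5* gave 38.0% of it, and the order was *Smad5* (36.9 CPM per kilobase), *Smad2* (19.9), *Smad3* (17.0), *Smad6* (9.41), *Smad1* (6.78), *Smad7* (6.24) and *Smad9* (0.988). Neighbours overlapped in 1 of 6 pairs, that of *Smad1* and *Smad7*. *Smad2*, a mediator of the TGF-β and activin branch at chr18:76241580-76310963, read 163, 170 and 172 CPM in WT against 175, 182 and 186 CPM in 5C. The genotypes did not overlap, but the gap between the highest WT and the lowest 5C library was small beside the spread within each. Its log2 fold change was 0.11 ± 0.06 (edgeR, adjusted p = 0.781), and the interval ran from 0.980-fold to 1.18-fold.

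*Smad5*, the most abundant BMP Smad, read 262, 273 and 288 CPM in WT against 268, 287 and 266 CPM in 5C. The 5C libraries lay inside the WT range, and the log2 fold change of -0.0022 had an interval from -0.15 to 0.14. The inhibitory Smads, themselves induced by the signal, also overlapped. *Smad6* read 29.3, 30.7 and 27.8 CPM in WT against 33.7, 28.3 and 31.2 CPM in 5C (log2 fold change 0.08, adjusted p = 0.861).

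*Smad7* read 28.9, 27.2 and 28.6 CPM in WT against 30.0, 27.4 and 27.3 CPM in 5C (log2 fold change 0.0028, interval -0.19 to 0.20). *Smad1* and *Smad3* had log2 fold changes of -0.04 and -0.09. *Smad9*, the least abundant BMP Smad, read 7.71 CPM in WT replicate 1 and 3.61 to 5.55 CPM in the other 5 libraries. WT replicate 1 was also the library highest in yolk sac markers, and the part of these in its value was not tested.

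The Id genes, which encode inhibitors of basic helix-loop-helix factors, summed to 185 ± 13.6 CPM per kilobase in WT and 194 ± 4.35 in 5C, so that these 3 genes overlapped in level with the sum of the 10 receptors. *Id3* (94.1 CPM per kilobase) gave 49.6% of the sum and was above *Id2* (50.9) and *Id1* (44.6), which overlapped each other. *Id1* read 44.1, 56.9 and 48.3 CPM in WT against 54.2, 52.0 and 54.7 CPM in 5C. The 5C libraries lay within the WT range, and the log2 fold change was 0.11 ± 0.10 (edgeR, adjusted p = 0.823).

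*Id2* read 122, 119 and 108 CPM in WT against 111, 137 and 147 CPM in 5C. 5C replicates 2 and 3 were above all WT libraries and replicate 1 was below 2 of them (log2 fold change 0.18 ± 0.10; edgeR, adjusted p = 0.781). The log2 fold change was 0.29 (adjusted p = 0.552) without 5C replicate 1 and 0.09 (adjusted p = 0.980) without 5C replicate 3. *Id3* read 159, 184 and 163 CPM in WT against 192, 162 and 152 CPM in 5C, with both the highest and the lowest value in 5C, and its log2 fold change was -0.00026 (interval -0.22 to 0.22).

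**Figure D4:**
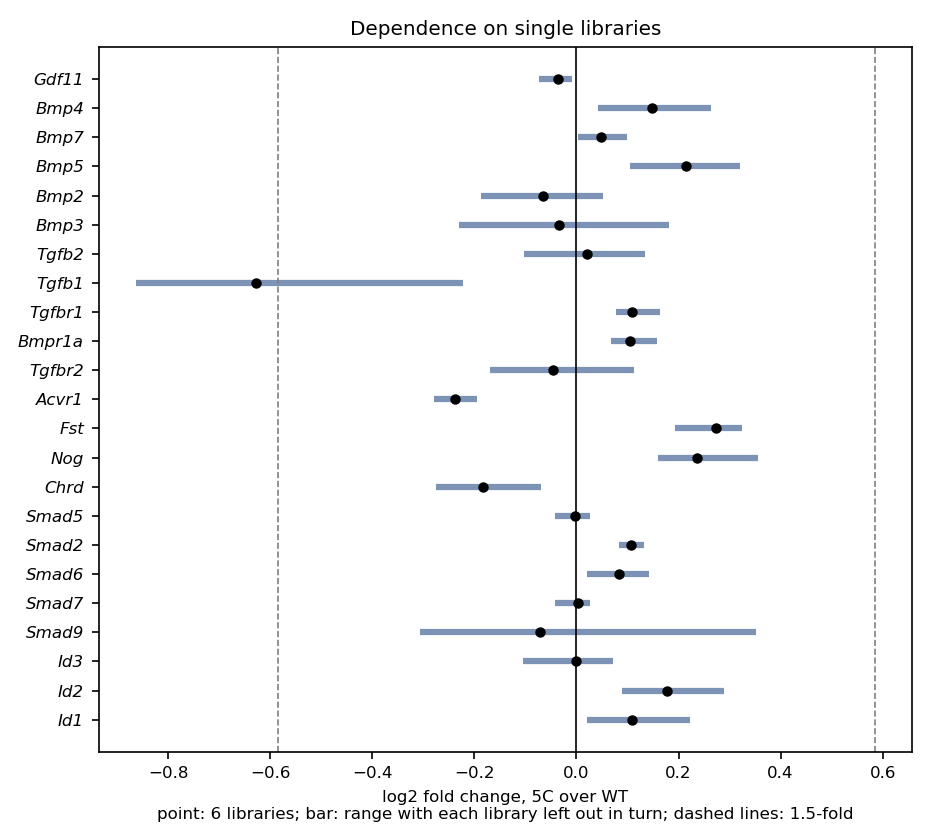
Log2 fold change of 5C over WT with all 6 libraries (point) and its range when each library is left out in turn (bar), for the 23 members named by rule or holding a seed match; dashed lines mark 1.5-fold. *Acvr1*, *Fst* and *Smad2* stay on 1 side of 0 with short bars, a side nearly fixed in advance since their genotypes did not overlap. *Tgfb1* runs from -0.86 to -0.22, and *Bmp2*, *Bmp3*, *Tgfb2*, *Tgfbr2*, *Smad5*, *Smad7*, *Smad9* and *Id3* cross 0.

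A wider list of 57 genes of the same pathways, other ligands, receptors, co-receptors, extracellular and intracellular regulators and targets, was treated in the same way, and 43 of them were tested. None was a DEG (edgeR), 1 was higher and 1 lower at an unadjusted p under 0.05, against 2.55% and 3.47% of all genes tested, and the median log2 fold change was 0.02. By DESeq2 none was a DEG and 1 had an unadjusted p under 0.05, against 2.32% of the 33084 genes it tested. The gene that was higher was *Id4*, a further Id family gene of the neural tube, at 57.3, 51.4 and 50.7 CPM in WT against 71.0, 65.7 and 56.1 CPM in 5C. 5C replicate 3 lay below the highest WT library, and the log2 fold change was 0.27 ± 0.10 (edgeR, adjusted p = 0.781). The summed neural tube markers, of which *Sox2* and *Pax6* alone did not overlap, were also higher in 5C. Their part in the *Id4* value was not tested.

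The gene that was lower was *Ltbp1*, for a latent TGF-β binding protein that holds the ligand in the matrix, at 57.8, 48.3 and 56.6 CPM in WT against 42.7, 49.0 and 48.2 CPM in 5C. WT replicate 2 lay within the 5C range (log2 fold change -0.22 ± 0.09; edgeR, adjusted p = 0.781). Non-overlap was found for 2 of the 43, both lower in 5C, against 11.4% of all genes tested in either direction and 5.1% lower in 5C. These were *Twsg1*, for an extracellular BMP binding protein, at 145, 147 and 147 CPM in WT against 134, 139 and 132 CPM in 5C (log2 fold change -0.12 ± 0.06, adjusted p = 0.781), and *Ltbp3* (6.36 ± 0.0177 and 5.58 ± 0.464 CPM; adjusted p = 0.811), the latter named because the count is small. *Smad4*, the partner of all signalling Smads, averaged 117 ± 6.15 and 116 ± 4.07 CPM (log2 fold change -0.01, interval -0.16 to 0.14), and *Grem1*, a BMP antagonist of the limb bud, 12.1 ± 2.67 and 12.5 ± 0.966 CPM (0.06, interval -0.32 to 0.44).

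The extremes of the members fell unevenly over the libraries. WT replicate 1 was the highest of the 6 libraries for 15 of 40 members and WT replicate 2 the lowest for 14, whereas over all genes tested these shares were 18.1% and 15.9%. The members are not independent of each other, and this is a description of the libraries. The pattern of the yolk sac markers, highest in replicate 1 among WT and in replicate 3 among 5C, was held by 5 of 40 members (12.5%), *Gdf11*, *Inhba*, *Smad3*, *Smad9* and *Id2*, and by 10.1% of all genes tested.

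With respect to the seed matches, the 6 genes holding one made up 14% of the members, beside 15.4% of 13923 tested genes with an annotated 3′ UTR. For miR-483-3p the count was 3 (6.98%, beside 12.7%) and for miR-483-5p it was 4 (9.30%, beside 3.45%). The 3′ UTRs searched ranged from 16 bases (*Gdf7*) to 8529 bases (*Bmpr2*), and a longer one has more room for a match. The 3 genes matched by miR-483-3p had log2 fold changes of 0.22 (*Bmp5*), 0.11 (*Bmpr1a*) and -0.05 (*Tgfbr2*). Those of the 4 matched by miR-483-5p were -0.03 (*Bmp3*), -0.05 (*Tgfbr2*), -0.0022 (*Smad5*) and -0.07 (*Smad9*). The median over the 6 genes was -0.02 and over the tested members without a match 0.00015. None of the 6 had an unadjusted p under 0.05, and a match is a run of letters and not evidence that the microRNA binds there.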

How the data were processed

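The authors made strand-specific poly(A) libraries of whole E10.5 embryos, sequenced them from 1 end as short reads and aligned these to GRCm38 with STAR. The counts deposited by the authors are raw reads per Ensembl gene, as whole numbers without normalization. The strand column used for counting is not given in the sources used here, so genes with shared exons are uncertain. Groups came from the sample titles. The symbols were matched through GENCODE annotation of GRCm38, in which 55141 of 55401 identifiers were found, and it also gave exon lengths and 3′ UTRs. Sites were exact matches in the 3′ UTR following the stop codon of protein-coding transcripts.

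Counts were tested with edgeR 4.0.16 in R 4.3.3 (filterByExpr, TMM scaling, legacy quasi-likelihood F-test), with two-sided p-values and Benjamini-Hochberg adjustment over all genes tested. The SE of a fold change came from the fitted weights and the moderated dispersion, and intervals used the t distribution of the test. A level between genes is CPM per kilobase of union exon length. The alternatives were RLE scaling, library size alone, no count filter, at least 10 counts in every library, DESeq2 1.42.0, the replicate number as a block, lowess offsets on GC content with or without that block, and libraries left out. The procedures were tested on simulated counts.

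The members and all lists were chosen with earlier results of these data known. Named with values in every library were members whose genotypes did not overlap or with an unadjusted p under 0.05, those with the highest level or smallest p of each role, and *Bmp2*, *Bmp4*, *Bmp7*, *Tgfb1*, *Tgfb2*, *Nog*, *Smad6*, *Smad7* and the Id genes. Of the wider list the 3 smallest p-values, *Grem1* and *Smad4* were named. *Ltbp3*, *Tgfbr3*, *Bmpr1a* and other members given with values were named after their values were seen. Equal replicate numbers are not stated to be littermates.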

Additional observations from a re-analysis of the deposited data

How the results depend on the processing

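No member was a DEG under any alternative, and of 448 fold changes recomputed for the 28 named genes 402 kept their direction and their side of the threshold, 46 changed sign and 0 reached an adjusted p under 0.05. Of the 28 genes, 17 kept their direction in every alternative, among them *Acvr1*, *Fst*, *Smad2*, *Tgfb1*, *Bmp4*, *Bmp5*, *Nog*, *Id1*, *Id2*, *Id4* and *Ltbp1*. For *Acvr1*, *Fst* and *Smad2*, whose genotypes did not overlap, the direction with libraries left out was nearly fixed in advance. Over all genes the count of DEGs was 319 without a count filter and 11 by DESeq2, and no more than 2 in any other alternative.

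Members at an unadjusted p under 0.05, 0 as reported, numbered 1 with library size alone (*Fst*, against 6.26% of all genes). They numbered 2 of 42 without a count filter (*Tgfb1* and *Id2*, against 6.55% of 33139 genes) and 1 of 42 by DESeq2 (*Tgfb1*, against 2.32% of 33084 genes). With single libraries or the 2 pairs in doubt left out they numbered 0 to 5, the highest without 5C replicate 1 (*Id2*, *Bmp5*, *Bmp4*, *Acvr2a*, *Bmpr1a*; all genes 8.66%) and then 4 without WT replicate 2 (*Tgfbr3*, *Tgfb1*, *Id1*, *Bmpr1b*; 10.4%), 2 without both replicates 2 (5.11%) and 1 without WT replicate 1 (*Tgfb1*; 4.63%). With libraries left out, the members lower in 5C numbered 10 to 23 of those tested, against 21, the 10 being without WT replicate 1 and 5C replicate 3, and the median log2 fold change of the members ranged from -0.024 to 0.062, the highest without WT replicate 1. Members whose genotypes did not overlap numbered 6 with GC-content offsets, 6 with these offsets and the replicate block (10.6% of all genes in both), and 6 to 16 with libraries left out (16.7% to 36.2% of all genes), where fewer libraries make non-overlap more frequent by construction. The causes of the other changes were not tested.

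In the wider list, 1 gene was a DEG without a count filter, against 0.963% of 33139 genes in that setting. The list's count at an unadjusted p under 0.05, 2 as reported, was 1 with library size alone (all genes 6.26%) and 5 without a count filter (6.55%). It was 1 by DESeq2 (2.32%), 1 with the replicate block (4.66%), 1 with GC-content offsets (5.03%) and 1 with both (3.27%). With libraries left out it was 0 to 5, with 5 without WT replicate 2 (10.4%) and 0 without WT replicate 3 (5.11%). Its count without overlap, 2 as reported, was 4 with library size alone, 5 without a count filter, 5 by DESeq2, 1 with GC-content offsets, 1 with offsets and block, and 5 to 16 with libraries left out.

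GC-content offsets moved *Tgfbr1* from 0.11 to 0.025, *Bmpr1a* from 0.11 to 0.024 and *Smad2* from 0.11 to 0.067. Changes of sign among the 28 genes were all in genes with small fold changes. With GC-content offsets, alone and with the block, the log2 fold changes were 0.0058 and 0.0048 for *Gdf11*, 0.053 and 0.054 for *Id3*, and 0.0059 and 0.0067 for *Smad4*. With library size alone and without a count filter they were 0.015 and 0.012 for *Smad5*, 0.018 and 0.013 for *Id3*, and 0.010 and 0.0067 for *Smad4*. *Id3* was at 0.00046 by DESeq2, and *Smad7* at -0.0022 with RLE scaling and -0.0017 with at least 10 counts in every library. With libraries left out the ranges were -0.21 to 0.16 (*Bmp2*), -0.23 to 0.26 (*Bmp3*), -0.16 to 0.14 (*Tgfb2*), -0.21 to 0.11 (*Tgfbr2*), -0.042 to 0.026 (*Smad5*), -0.043 to 0.046 (*Smad7*), -0.31 to 0.35 (*Smad9*), -0.10 to 0.091 (*Id3*), -0.14 to 0.15 (*Grem1*) and -0.066 to 0.038 (*Smad4*). Counting only matches of 8 bases left 0 members with a seed match, beside 3.83% of 13923 tested genes with an annotated 3′ UTR.

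For WT and 5C libraries of equal number, the deviations from the mean of each genotype correlated at -0.17, 0.20 and -0.17. The largest value, 0.31, was for WT replicate 1 with 5C replicate 3, the libraries highest in yolk sac markers. With 3 libraries per genotype these values cannot decide whether equal numbers mark pairs. Members at an unadjusted p under 0.05 numbered 0 of 40 with the replicate block, against 4.66% of all genes. The smallest p was that of *Tgfb1*, with a log2 fold change of -0.58. Of the 14 tested members under 10 CPM, 4 had intervals inside 1.5-fold. The parts of depth and of variation between libraries in the wider intervals were not tested.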
